A study of Mus musculus with 17 samples.

Results

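The glycolysis genes described here were 10 genes chosen by name for their place in the pathway from glucose uptake to lactate: *Slc2a1*, *Hk2*, *Pfkl*, *Aldoa*, *Tpi1*, *Pgk1*, *Pgam1*, *Eno1*, *Pkm* and *Ldha*. They were 10 of the 18836 genes listed in at least 1 library, and each of the 10 was listed in all 17 libraries. The cells were mouse neural retinal progenitor cells (mNRPCs), grown from the neural retina of adult mice and labelled with the strain C57BL/6. In the study's methods the cells were derived and expanded in basic medium (BM: DMEM/F12 with N2, B27 and beta-mercaptoethanol) that held both bFGF and CHIR99021, on a Matrigel coating, so every group had seen both agents before. bFGF is basic fibroblast growth factor, and CHIR99021 is a small-molecule inhibitor of the kinase GSK3. RNA was sequenced from cells in BM alone and with bFGF (B), CHIR99021 (C) or both agents added (BC) on days 1, 3, 5 and 7, and from a control marked day 0, which its label gives as having no treatment. The study's results describe that control as cells in BM, while its methods speak of values before treatment. Whether the day 0 cells still had bFGF and CHIR99021 is thus not settled. Each treatment and day was 1 library, so nothing below measures the spread between cultures.

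Glycolysis splits glucose into pyruvate and yields ATP without oxygen, and lactate dehydrogenase turns pyruvate into lactate so that the pathway can go on. The retina is known for converting much of its glucose to lactate even where oxygen is present, and growing cells in culture commonly do the same. Many glycolytic genes are textbook targets of the hypoxia-inducible factors, transcription factors that bind a short DNA element with the core letters ACGTG or GCGTG. Growth factor signalling is another known input to these genes.

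Across the 16 cultured libraries, 9 of the 10 genes were higher with bFGF and 1, *Hk2*, was lower, when bFGF, CHIR99021 and the day were terms of 1 model. In that model 34.6% of the 11272 genes tested were called higher with bFGF and 33.9% were called lower, so a call in itself was common. The largest difference was that of *Pgk1*, 2.09 ± 0.35 on the log2 scale (SE), or 4.26-fold. On day 1 none of the 10 passed the test, and by day 7 the 9 higher genes differed by 1.94- to 8.34-fold. CHIR99021 gave no called difference for any of the 10 in the model of days 1 to 7.

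Depth and cell identity bear on all of these values. The total expected count per library ran from 17571973 to 19428744, and the lowest count of any of the 10 genes was 1054, in *Hk2*, so counting error was small beside the differences below. Of 9 progenitor markers, 5 had a mean FPKM of at least 1, led by *Pax6*, while the progenitor genes *Rax* and *Six6* did not exceed 0.07 and 0.03 FPKM in any library. Over days 1 to 7, 4 of the 5 progenitor markers tested were lower with bFGF and 0 higher. *Pax6*, a transcription factor of retinal progenitors, was at 165 (BM) and 152 (C) FPKM without bFGF on day 7 and 10.7 (B) and 16.5 (BC) with it. Of 6 glial markers only *Glul* and *Vim* had a mean FPKM of at least 1 and were tested, and both were higher with bFGF. *Vim*, an intermediate filament gene, was at 1229 (BM) and 1380 (C) FPKM on day 7 without bFGF. With bFGF *Vim* was at 3399 (B) and 3782 (BC). The glial marker *Aqp4* went the other way, at 1.53 (BM) and 1.44 (C) FPKM on day 7 and 0.03 (B) and 0.02 (BC). *Gfap*, *Rlbp1* and *Slc1a3* did not exceed 0.13 FPKM in any library. The part of these markers in the results was not tested. Summed photoreceptor markers stayed at 0.56 to 1.37 FPKM and summed endothelial markers at 0.02 to 1.27. The 7 bipolar, amacrine and ganglion cell markers, led by *Tfap2a*, summed to 64.07 to 120.94 FPKM without bFGF and 26.05 to 67.2 with it. Of these, 3 were tested over days 1 to 7, of which 1 was lower with bFGF (33.9% of all genes were) and 2 were not called. The 5 fibroblast and pericyte markers summed to 14.99 to 159.53 FPKM in the 8 libraries without bFGF and 6.13 to 34.43 in the 8 with it, and the 4 microglia and macrophage markers to 1.60 to 3.93 and 2.11 to 80.83, of which *Cd68* gave up to 79.8. The fibroblast and pericyte sum was lower and the microglia and macrophage sum higher in most libraries with bFGF. The part of all these lists in the results was not tested. In bulk RNA, a change in which cells are present and a change of RNA per cell cannot be told apart.

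The promoters of the genes are shown here because 7 of the 10 genes have the letters ACGTG, on either strand, within 250 bases before a start site. Of 9068 tested genes with a promoter in the table, 25.67% have them. A gene with several start sites has several windows and so more places for a match. By window, 8 of the 16 of these genes have the letters, beside 21.96% of 11588 windows of tested genes. *Aldoa* windows that overlap share a site and both count. The other core spelling, GCGTG, was found before 5 of the 10 genes and 51.5% of tested genes. The palindrome CACGTG, which contains ACGTG on both strands, was found only before *Ldha* and before 10.04% of tested genes, and TATAAA before none of the 10 and 7.53% of tested genes. A match is a string of letters and not evidence of a bound site, and no match says only that the letters are not in this window. The promoters of 3 genes are printed from RefSeq (GRCm38.p6, the assembly called mm10), each 250 bases up to the base before the start, on the gene's own strand, with ACGTG or its reverse complement in capitals. *Ldha* (chr7:46845554-46845803, plus strand) is the only 1 of the 10 with the palindrome, *Pgk1* (chrX:106186850-106187099, plus strand) had the largest bFGF difference, and *Hk2* (chr6:82774455-82774704, minus strand) was the gene that went the other way.
Ldha: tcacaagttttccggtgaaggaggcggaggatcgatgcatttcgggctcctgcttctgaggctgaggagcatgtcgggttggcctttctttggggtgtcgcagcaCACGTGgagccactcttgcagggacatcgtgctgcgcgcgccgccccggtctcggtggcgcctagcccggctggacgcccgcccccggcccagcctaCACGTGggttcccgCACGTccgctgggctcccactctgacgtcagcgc
Pgk1: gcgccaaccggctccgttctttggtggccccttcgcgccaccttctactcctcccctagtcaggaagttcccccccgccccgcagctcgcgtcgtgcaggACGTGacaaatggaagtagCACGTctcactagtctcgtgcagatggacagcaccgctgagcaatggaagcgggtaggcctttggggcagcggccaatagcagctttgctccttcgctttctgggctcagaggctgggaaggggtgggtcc
Hk2: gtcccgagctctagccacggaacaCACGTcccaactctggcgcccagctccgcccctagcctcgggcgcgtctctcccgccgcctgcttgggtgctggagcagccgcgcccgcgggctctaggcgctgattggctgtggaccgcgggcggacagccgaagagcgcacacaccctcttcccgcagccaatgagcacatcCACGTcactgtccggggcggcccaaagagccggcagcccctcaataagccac
This *Ldha* window holds the letters in 3 places, and the matches begin 145, 144, 48, 47 and 34 bases before the start, with a pair for each palindrome. The other *Ldha* window, not printed, has no match. *Pgk1* has them at 150 and 131 bases and *Hk2* at 226 and 52 bases. *Pgk1* and *Hk2* thus both carry ACGTG, and their levels moved in opposite directions with bFGF.

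Levels of different genes were compared as FPKM, which is scaled by transcript length. On day 0 the order was *Pkm* (1794 FPKM), *Eno1* (1639), *Aldoa* (1413), *Ldha* (1236), *Pgk1* (621), *Tpi1* (499.7), *Pgam1* (443), *Pfkl* (53.7), *Slc2a1* (44.8) and *Hk2* (25.1). The 7 genes from aldolase to lactate dehydrogenase were thus at 443 FPKM or more, and the transporter and the 2 kinases of the upper pathway at 53.7 or less. With 1 library, no neighbours in this order can be said to differ. *Aldoa* ranked 11 and *Pkm* 25 among all genes by mean FPKM over the 17 libraries, against 2630 for *Hk2*.

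**Figure D1:**
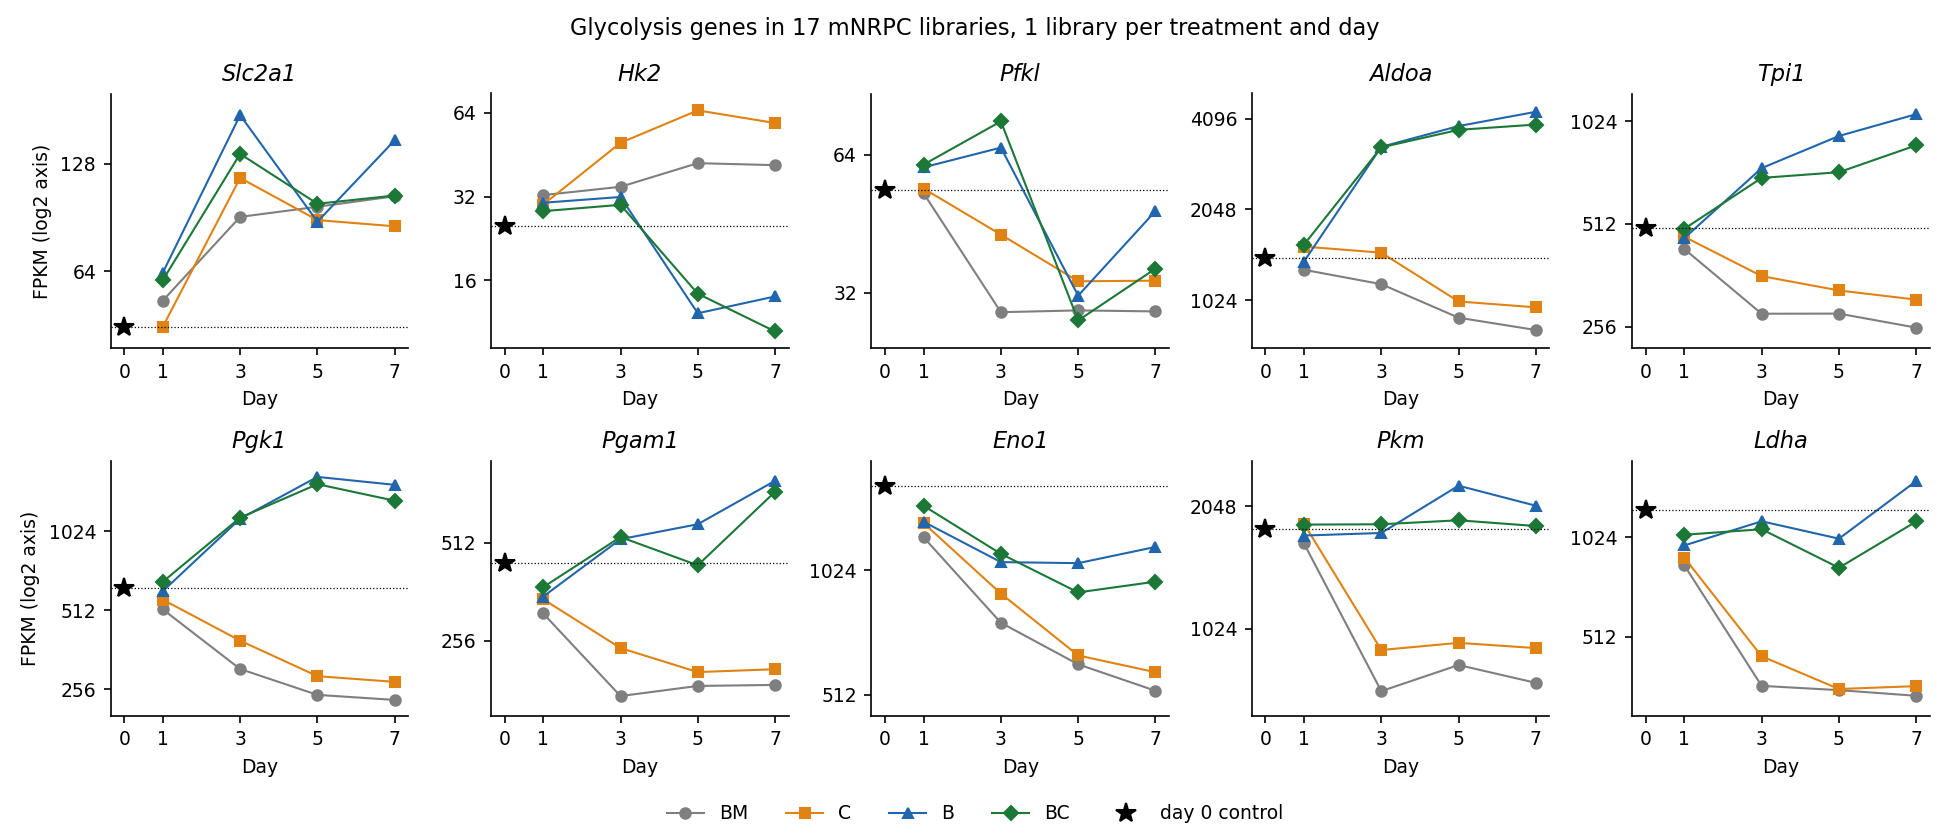
FPKM of each of the 10 genes (vertical, log2 axis) against day (horizontal) in BM, C, B and BC, with the day 0 control as a star and a dotted line. From *Aldoa* to *Ldha* the 2 treatments with bFGF (B, BC) separate from the 2 without (BM, C) by day 3, while *Hk2* lies lower with bFGF from day 3.

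Glucose enters through *Slc2a1*, which encodes the transporter GLUT1. It was 44.8 FPKM on day 0, between 44.7 and 117 without bFGF (median 90.0) and between 60.4 and 175 with it (median 102). The 2 ranges overlapped, and the highest value was that of B on day 3. *Slc2a1* was higher with bFGF over days 1 to 7 by 0.63 ± 0.11 (log2 ± SE, edgeR adjusted p = 0.000489). On unscaled FPKM it was higher in 7 of 8 pairs of libraries that share a day and differ only in bFGF, the exception being B on day 5, at 0.908 times BM.

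*Hk2* encodes hexokinase 2, which phosphorylates glucose as it enters the cell and can bind to mitochondria. It was 25.1 FPKM on day 0 and 28.4 to 32.4 in the 4 libraries of day 1. In BM it was then 34.7, 42.2 and 41.5 FPKM on days 3, 5 and 7, and in C 49.9, 65.3 and 58.8. In B it was 31.9, 12.2 and 14.0 FPKM on the same days and in BC 29.9, 14.3 and 10.5. The 6 libraries with bFGF of days 3 to 7 thus all lay below the 6 without, as did 29.7% of tested genes. *Hk2* was lower in 8 of 8 pairs on unscaled FPKM, where the median gene was lower with bFGF too. Relative to the median gene, *Hk2* differed by -0.05 and -0.04 on day 1 and by -0.01 in B against BM on day 3 (log2). In the remaining pairs that value ran from -0.64 to -1.88. In the model of days 1 to 7 *Hk2* fell by 0.85 ± 0.23 with bFGF (log2 ± SE, edgeR adjusted p = 0.00537), a 1.80-fold difference.

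*Pfkl* encodes the liver-type subunit of phosphofructokinase, the enzyme at the main control step. It was 53.7 FPKM on day 0, 29.1 to 54.0 without bFGF (median 34.0) and 27.9 to 75.6 with it (median 54.1). The ranges over all days overlapped. By day, the libraries with and without bFGF overlapped on day 5 alone, when B and BC were at 31.6 and 27.9 FPKM, beside 29.3 in BM and 33.9 in C. *Pfkl* was nonetheless higher with bFGF by 0.67 ± 0.13 (adjusted p = 0.00100), with its 2 largest differences by day on days 3 and 7.

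*Aldoa* encodes aldolase A, which splits the phosphorylated sugar into its triose parts. It was 1413 FPKM on day 0 and from 1292 to 1564 in the 4 libraries of day 1. On day 7 it was 816 in BM and 969.9 in C, and 4312 in B and 3912 in BC. The values with bFGF on days 3 to 7, from 3287 upward, all lay far above the 1542 of C on day 1, the highest value without bFGF. Over days 1 to 7 *Aldoa* was higher with bFGF by 1.71 ± 0.32 (adjusted p = 0.000764), a 3.27-fold difference.

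*Tpi1* encodes triosephosphate isomerase, which interconverts the 2 products of aldolase. Its 8 libraries without bFGF ran from 254 to 469 FPKM (median 317) and the 8 with bFGF from 465 to 1074 (median 736), with 499.7 on day 0. The ranges met only on day 1. Its bFGF difference was 1.43 ± 0.26 (adjusted p = 0.000620).

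*Pgk1* encodes phosphoglycerate kinase, the first ATP-yielding step. It was 621 FPKM on day 0. Without bFGF it went from 516 in BM and 562 in C on day 1 to 233 and 273 on day 7, and with bFGF from 606 in B and 658 in BC to 1543 and 1342. All 8 libraries with bFGF lay above all 8 without, as they did for 1.39% of tested genes, and *Pgam1* was the only other of the 10 with that separation. On day 5 *Pgk1* stood at 1655 FPKM in B and 243 in BM, 6.80 times apart, which was the widest ratio of any pair of the 10 genes.

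*Pgam1*, encoding phosphoglycerate mutase 1, was 443 FPKM on day 0, 173 to 343 without bFGF (median 207) and 349.8 to 793 with it (median 529). The lowest library with bFGF was close to the highest without it, both on day 1. Its difference was 1.51 ± 0.26 (adjusted p = 0.000489).

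*Eno1* encodes enolase 1, which makes phosphoenolpyruvate. It was 1639 FPKM on day 0, and the 16 cultured libraries were all lower. Without bFGF it went from 1232 in BM and 1334 in C on day 1 to 524 and 581 on day 7, and with bFGF from 1343 in B and 1468 in BC to 1168 and 962. The difference with bFGF was 0.82 ± 0.17 (adjusted p = 0.00123), with the libraries without bFGF farther below day 0 from day 3 on.

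*Pkm* encodes the pyruvate kinase of most tissues, the second ATP-yielding step. Its 2 main splice forms, of which PKM2 is the one of growing cells, are summed in these gene-level values. It was 1794 FPKM on day 0, 1734 to 2299 with bFGF (median 1846) and 718 to 1853 without (median 912). With bFGF the level stayed near that of day 0 on all 4 days, and without it the 6 libraries of days 3 to 7 lay between 718 and 944. The difference was 1.20 ± 0.22 (adjusted p = 0.000653).

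*Ldha* encodes the lactate dehydrogenase subunit that favours lactate formation. It was 1236 FPKM on day 0, 842 and 888 in BM and C on day 1, and 339 and 363 on day 7. With bFGF it was 968 in B and 1042 in BC on day 1, and 1516 and 1143 on day 7. *Ldha* had the lowest adjusted p of the 10 over days 1 to 7 (0.000352), with a difference of 1.54 ± 0.25.

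In the model fitted by day, which had 1 mean for each combination of bFGF and day plus CHIR99021, each day's difference compared the libraries with bFGF (B, BC) to those without (BM, C). On day 1, 0 of the 10 genes passed (10.7% of genes did), and 2 had an unadjusted p under 0.05: *Slc2a1*, at 0.43 (95% interval 0.07 to 0.79), and *Pgk1*, at 0.31 (0.04 to 0.58). DESeq2 and limma also called none on day 1. On day 3, 9 genes were higher and none lower, beside 25.4% and 25% of all genes. The day 3 differences ran from 0.50 for *Eno1* to 1.82 for *Pgk1*, and *Hk2* was at -0.34 (adjusted p = 0.196). The calls of *Eno1* and *Slc2a1* on day 3 rested on BM, since without that library they were 0.38 and 0.40 (adjusted p = 0.0683 and 0.0757). Fitted on that day alone they were at 0.50 and 0.68 and missed the threshold too (adjusted p = 0.110 and 0.0709).

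On day 5, 8 genes were higher and *Hk2* lower, beside 37.2% and 38.6% of all genes. *Pgk1* was 8.28-fold higher with bFGF, *Aldoa* 5.45-fold and *Tpi1* 3.73-fold. *Pfkl*, at 0.39, missed the threshold (adjusted p = 0.0531), and *Slc2a1*, at 0.46, passed it (adjusted p = 0.0229). *Hk2* was 2.97-fold lower. Both borderline genes depended on the scaling: on FPKM as deposited *Slc2a1* differed by 0.01 on day 5 (limma, adjusted p = 0.974), and *Pfkl* passed in DESeq2 (0.41, adjusted p = 0.0316). Leaving out BC, BM or C of day 5 also took the call of *Slc2a1* away (0.30, 0.44 and 0.45), as did a filter at a mean FPKM of 5 (0.34).

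On day 7, 9 genes were higher and 1 lower, beside 38.8% and 39.6% of all genes. The log2 differences, each with its SE, were 3.06 ± 0.13 for *Pgk1*, 2.74 ± 0.13 for *Aldoa*, 2.49 ± 0.17 for *Pgam1* and 2.46 ± 0.15 for *Ldha*. They were 2.34 ± 0.17 for *Tpi1*, 1.73 ± 0.14 for *Pkm* and 1.48 ± 0.13 for *Eno1*. *Pfkl* and *Slc2a1* differed least among the higher genes, at 0.97 ± 0.17 and 0.95 ± 0.17, and *Hk2* was at -1.47 ± 0.22. The median of the 10 was 2.04, and the median of all tested genes was -0.0066.

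**Figure D2:**
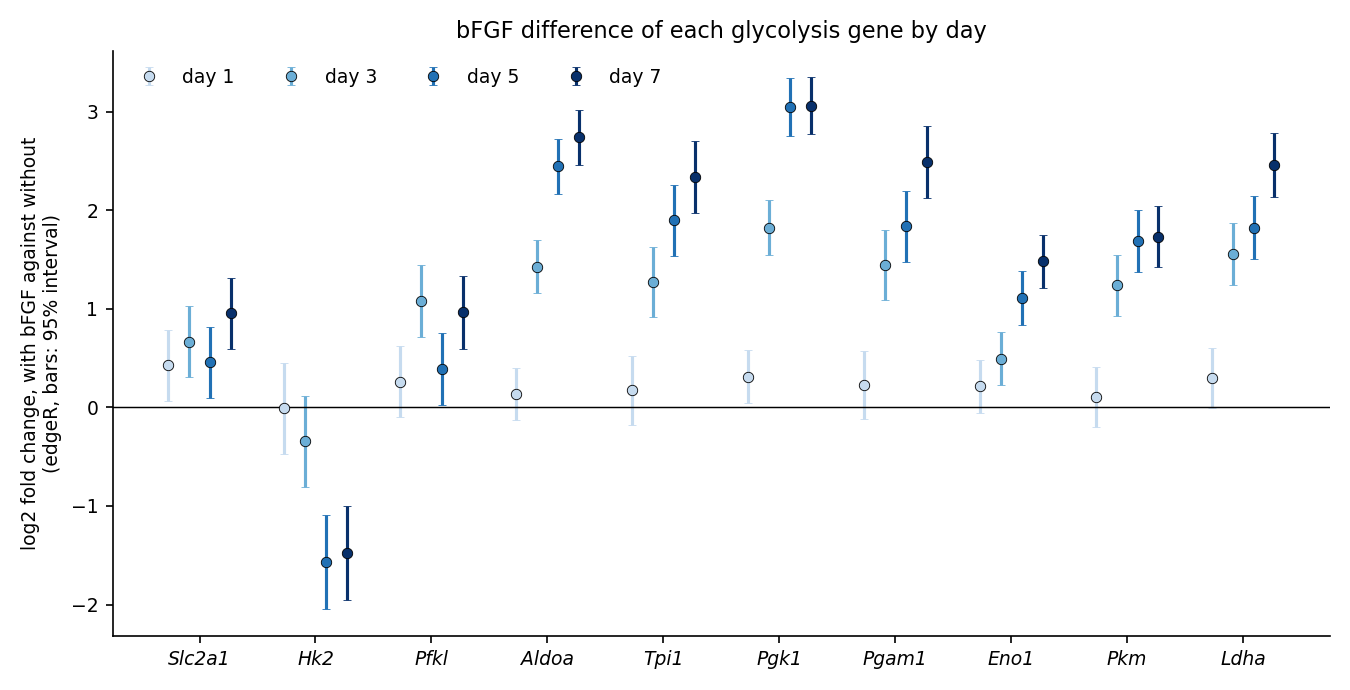
Log2 fold change of each of the 10 genes with bFGF against without (vertical), by day, from edgeR, with 95% intervals as bars. On day 7 the values run from 3.06 for *Pgk1* to -1.47 for *Hk2*.

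Whether the bFGF difference itself changed between day 1 and day 7 was tested as a contrast of the 2 days. It passed for 9 of the 10 (65.4% of all genes), upward for 8 (31.3%) and downward for *Hk2* (34.1%). The change was 2.75 for *Pgk1* and 2.61 for *Aldoa*, and for *Slc2a1* it was 0.53 and missed the threshold (95% interval 0.02 to 1.04, adjusted p = 0.0640). For *Pfkl* it was 0.70 (adjusted p = 0.0199) and lost the call on unscaled FPKM (0.22), with no TMM scaling (0.25), and without BC of day 1 (0.68) or without BM (0.64) or B (0.44) of day 7.

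The difference arose from movement in both arms. Without bFGF, 8 of the 10 genes fell between day 1 and day 7, and *Slc2a1* and *Hk2* rose, beside 31.5% of all genes lower and 32.3% higher. *Ldha* was 2.50-fold lower, *Eno1* 2.36-fold, *Pgk1* 2.17-fold and *Pkm* 2.14-fold. *Slc2a1* was 1.91-fold higher and *Hk2* 1.57-fold, and the call of *Hk2* was lost without C of day 1 (0.46, adjusted p = 0.178) or C of day 7 (0.40, adjusted p = 0.207). With bFGF, 7 genes rose and *Hk2* fell over the same days, beside 35.8% of all genes higher and 39.5% lower. *Aldoa* was 3.77-fold higher, *Pgk1* 3.10-fold, *Pgam1* 2.86-fold, *Slc2a1* 2.75-fold, *Tpi1* 2.74-fold, *Ldha* 1.79-fold and *Pkm* 1.44-fold, and *Hk2* was 1.76-fold lower. *Eno1* (0.03) and *Pfkl* (-0.06) were not called. *Slc2a1* was thus the 1 gene of the 10 that rose in culture with and without bFGF. Without BC of day 7 the fall of *Hk2* was no longer called (-0.56, adjusted p = 0.0722).

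These fold changes are relative to TMM scaling, which brought the median gene of each comparison close to 0. In unscaled FPKM the median gene was lower with bFGF, at -0.03 on day 1 and, on day 7, at -0.46 (B against BM) and -0.50 (BC against C) on the log2(FPKM + 1) scale. The TMM factors of B and BC on days 5 and 7 were 0.754 to 0.816, and those of the libraries without bFGF on those days were 1.10 to 1.13. Unscaled ratios of the higher genes were therefore smaller. On day 7 *Aldoa* was 5.29 times BM in B and 4.03 times C in BC, *Ldha* 4.47 and 3.15 times, *Pfkl* 1.65 and 1.06 times, and *Slc2a1* 1.44 and 1.22 times. In the comparison of day 7 with day 1 within the bFGF arm, the scaling decided the sign of *Eno1*, which was -0.40 with no TMM scaling and then called lower (adjusted p = 0.00994), together with *Pfkl* (-0.49), while *Pkm* was then not called (0.10).

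Of the 10 genes, 7 had all 6 libraries with bFGF of days 3 to 7 above all 6 without in unscaled FPKM: *Aldoa*, *Tpi1*, *Pgk1*, *Pgam1*, *Eno1*, *Pkm* and *Ldha*. For all tested genes that share was 11.9%. The 7 genes are the enzymes from aldolase to lactate dehydrogenase, and the 3 that overlapped or lay below are the transporter and the 2 kinases of the upper pathway. That split depends on the genes chosen. Outside the 10, the upper-pathway genes *Slc2a3*, *Hk1* and *Pfkm* also overlapped, but *Pfkp* and *Gpi1* did not. In the same libraries *Pfkp* was at 49.7 FPKM or more with bFGF and 36.6 or less without. *Gpi1* was at 1869 or more with bFGF and 629 or less without.

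The 10 genes together took 1.44% of the expected counts of the day 0 library. In BM their share went from 1.21% on day 1 to 0.721% on day 3 and 0.623% on day 7, and in C from 1.34% to 0.912% and 0.725%. In B it went from 1.31% to 1.79% on day 3 and 2.24% on day 7, and in BC from 1.42% to 1.80% and 1.93%. By day 7 all the libraries with bFGF lay above day 0 and all those without it below.

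**Figure D3:**
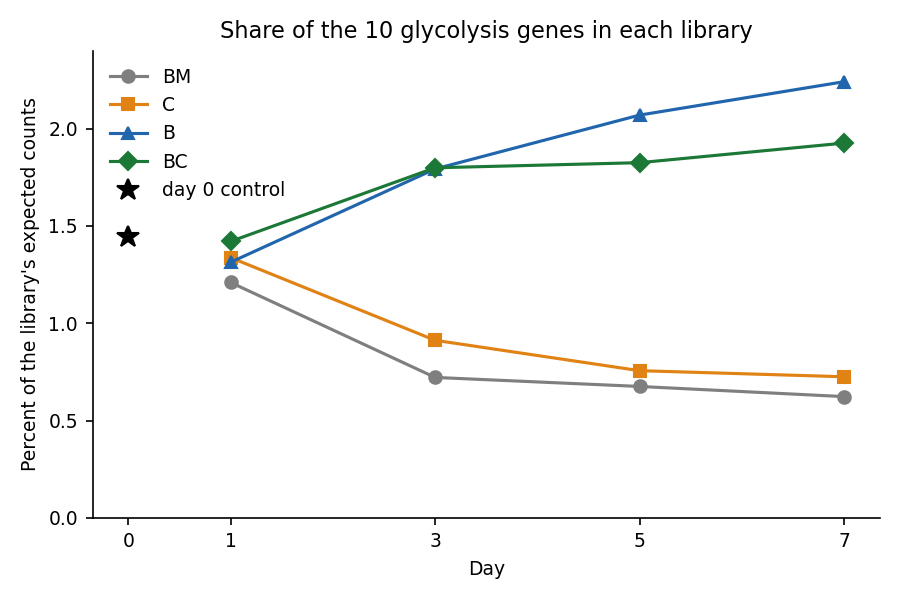
Percent of each library's expected counts in the 10 genes (vertical) against day (horizontal) for BM, C, B and BC, with the day 0 control as a star. The shares begin between 1.21% and 1.42% on day 1 and end between 0.623% (BM) and 2.24% (B) on day 7.

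Against the single day 0 library, differences are descriptions with no test. On day 7 in BM, 5 of the 10 genes were at least 2-fold lower (13% of genes were) and 1, *Slc2a1*, was at least 2-fold higher (21.1%). In C the counts were 4 lower (13.9%) and 1 higher (21.5%). In B, 4 genes were at least 2-fold higher (11.9%) and none lower (23.2%). In BC, 3 were higher (12.1%) and 1, *Hk2*, lower (25.6%). These counts move with the scaling: centred on the median gene, they were 7 lower and 1 higher in BM, 5 lower and 1 higher in C, and 5 higher and 0 lower in both B and BC. On day 1 the 10 genes were still near day 0, from 0.68 times for *Ldha* in BM to 1.42 times for *Slc2a1* in B. *Ldha* was at 0.27 times day 0 in BM on day 7 and 1.23 times in B, and *Aldoa* at 0.58 and 3.05 times.

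CHIR99021 inhibits GSK3, a kinase that in textbook accounts phosphorylates glycogen synthase as well as beta-catenin. In the model of days 1 to 7 none of the 10 genes passed for CHIR99021 (0.337% of genes did), none had an unadjusted p under 0.05, and neither DESeq2 nor limma called any. The differences ran from -0.13 for *Slc2a1* (95% interval -0.36 to 0.10) to 0.17 for *Hk2* (-0.30 to 0.65). The intervals of *Pgk1* (-0.61 to 0.77) and *Aldoa* (-0.52 to 0.76) were wide, and the spread of that model, a biological coefficient of variation of 24.7%, holds the change of the bFGF difference over days. The interaction of bFGF and CHIR99021 was called for none (0.00887% of genes) and for none by DESeq2 or limma.

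A further model, added after the values had been seen, gave each combination of bFGF and day a term of its own. There too none of the 10 was called for CHIR99021 (19.5% of genes were), and the intervals ran no further than -0.31 for *Slc2a1* and 0.39 for *Hk2*. *Aldoa* was at 0.14 (0.01 to 0.27, adjusted p = 0.130). Split by bFGF, *Aldoa* and *Pgk1* were higher with CHIR99021 in the libraries without bFGF, by 0.27 ± 0.07 (adjusted p = 0.0291) and 0.25 ± 0.07 (adjusted p = 0.0455), beside 7.3% of genes called in either direction. *Hk2* had the largest value there, 0.40 (0.15 to 0.65), and just missed the threshold (adjusted p = 0.0533). *Slc2a1* was the 1 gene of the 10 with a value below 0, at -0.06. With bFGF present none of the 10 was called (16.9% of genes were), and the values ran from -0.19 for *Slc2a1* to 0.0046 for *Aldoa*. The test of that contrast between the arms, the interaction, called none of the 10 (0.692% of genes). Its largest values were those of *Hk2*, -0.49 (-0.84 to -0.14, adjusted p = 0.199), and *Tpi1*, -0.41 (-0.65 to -0.18, adjusted p = 0.123), so a difference between the arms was not shown for any of the 10.

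**Figure D4:**
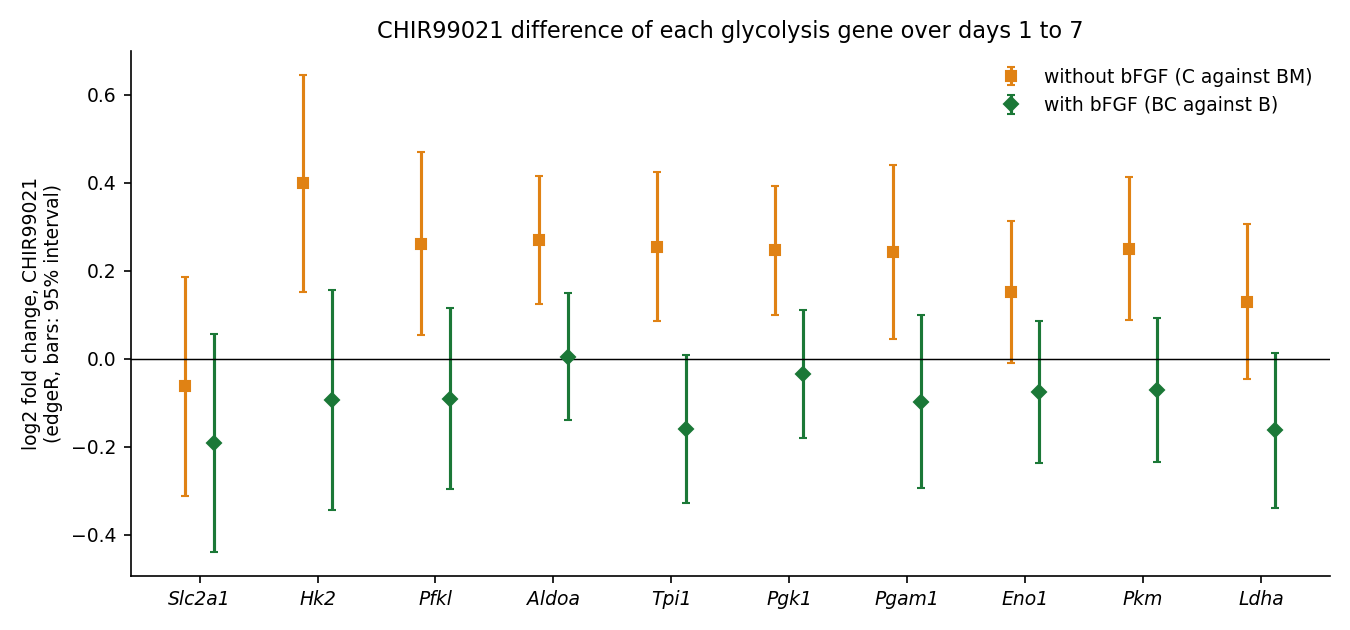
Log2 fold change of each of the 10 genes with CHIR99021 over days 1 to 7 (vertical), without bFGF (C against BM) and with bFGF (BC against B), from the added edgeR model, with 95% intervals as bars. All but *Slc2a1* lie above 0 without bFGF, from 0.13 for *Ldha* to 0.40 for *Hk2*, and near or below 0 with it.

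Several steps have sister isozymes, and FPKM lets their levels be set side by side. *Hk1*, the hexokinase of most tissues, was 67.1 FPKM on day 0 and 72.8 to 94.8 in the 4 libraries of day 7. After TMM scaling it was higher with bFGF by 0.35 ± 0.10 (adjusted p = 0.00669) where *Hk2* was lower. In unscaled FPKM on day 7 *Hk1* was higher in B (94.8) than in BM (72.8) but lower in BC (73.3) than in C (84.0). *Hk2* made up 27.2% of the summed FPKM of the pair on day 0, 36.3% and 41.2% in BM and C on day 7, and 12.9% and 12.5% in B and BC. *Aldoc*, the aldolase of neurons and glia, was 12.8 FPKM on day 0, and 191 (BM) and 241 (C) without bFGF on day 7 and 104 (B) and 83.2 (BC) with it. It was lower with bFGF, at -0.48 ± 0.13 (adjusted p = 0.00518), and *Aldoa* made up 81.1% and 80.1% of the 2 aldolases without bFGF on day 7 and 97.6% and 97.9% with it. *Slc2a3*, the neuronal glucose transporter GLUT3, was higher with bFGF by 1.30 ± 0.27 (adjusted p = 0.00132), from 3.50 FPKM on day 0 to 32.1 in B on day 7.

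For phosphofructokinase, the platelet-type subunit *Pfkp* was higher with bFGF by 1.27 ± 0.18 (adjusted p = 0.000179) and the muscle-type *Pfkm* by 0.45 ± 0.11 (adjusted p = 0.00353). *Pfkl* was 50.9% of the 3 subunits' FPKM on day 0 and 28.2% to 35.4% on day 7. *Eno2*, the neuronal enolase, was higher by 0.74 ± 0.21 (adjusted p = 0.00790) and the muscle form *Eno3* lower, at -0.65 ± 0.13 (adjusted p = 0.00110), and *Eno1* made up 93.3% to 97.6% of the 3 on day 7. *Ldhb*, the subunit that favours pyruvate, was higher by 0.30 ± 0.11 (adjusted p = 0.0273), and *Ldha* was 94.5% to 98.7% of the pair on day 7. In unscaled FPKM *Ldhb* was higher with bFGF on day 3 and lower on days 1 and 5. On day 5 it was 13.6 (B) and 14.2 (BC) beside 18.3 (BM) and 18.8 (C). On day 7 unscaled *Ldhb* and *Pfkm* were both higher in B than in BM but lower in BC than in C. *Eno1b*, a near copy of *Eno1*, had a mean below 1 FPKM. Expected counts share out reads that fit several copies, and *Gapdh*, *Eno1*, *Pgk1*, *Aldoa* and *Ldha* have processed copies in the mouse genome, so their absolute levels are less certain than those of *Hk2* or *Slc2a1*.

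The 10 genes leave out the isomerase and the dehydrogenase steps, which were also higher with bFGF. *Gpi1*, encoding glucose-6-phosphate isomerase, was 395 FPKM on day 0, 237 (BM) and 281 (C) without bFGF on day 7 and 2406 (B) and 2485 (BC) with it. It was higher with bFGF by 2.42 ± 0.48 (adjusted p = 0.00100), a larger estimate than that of any of the 10. *Gapdh*, encoding glyceraldehyde-3-phosphate dehydrogenase and often used as a reference gene, was 2918 FPKM on day 0, 1554 (BM) and 2141 (C) without bFGF on day 7 and 7492 (B) and 6725 (BC) with it. It was higher by 1.44 ± 0.31 (adjusted p = 0.00154). Of 23 other glycolysis genes, 14 were tested, of which 8 were higher (34.6% of all genes were), 5 lower (33.9%) and 1 not called. Besides *Eno3*, the lower genes with the smallest adjusted p were *Bpgm*, which makes 2,3-bisphosphoglycerate (-0.73), and *Pgam2*, the muscle mutase (-1.23).

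Genes of linked pathways were counted over the same contrast of days 1 to 7, against 34.6% of all genes higher and 33.9% lower. Of 5 tested genes that set glycolytic flux, 1 was higher and 1 lower: *Adpgk*, an ADP-dependent glucokinase (0.70), and *Pfkfb2*, which makes the activator fructose-2,6-bisphosphate (-0.97). Of 16 tested genes for the fate of pyruvate and lactate, 9 were higher and 2 lower. *Pdp2*, a phosphatase that activates pyruvate dehydrogenase, was at 1.31, and its subunits *Dld* and *Pdhb* at 0.47 and 0.63. *Pdk2*, a kinase that inactivates the same complex, was at -0.60, and the subunit *Pdhx* at -0.25. Its sister kinases *Pdk1* and *Pdk3*, named after their values were seen, were higher, at 0.55 (adjusted p = 0.0379) and 0.35 (adjusted p = 0.0112). Of 2 tested gluconeogenesis genes both were higher, *Pck2* at 0.69 and *G6pc3* at 0.24, while *Fbp1* and *Fbp2* were listed in no library. Small differences here rest on the TMM scaling. In unscaled FPKM on day 7 *G6pc3* was 28.4 (BM) and 26.1 (C) without bFGF and 26.1 (B) and 25.2 (BC) with it.

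Of 8 tested pentose phosphate genes 3 were higher, *Taldo1* (0.90), *Pgls* (0.64) and *Rpe* (0.40), and *Tkt* was lower (-0.30). On day 7 alone 3 genes of the list were higher and 4 lower, beside 38.8% and 39.6% of all genes. Of 16 tested TCA cycle genes 10 were higher and 2 lower. The smallest adjusted p among them were those of *Idh3b* (0.85), *Mdh2* (0.42) and *Cs* (0.59), and the lower pair were *Ogdh* (-0.50) and *Suclg1* (-0.41). Of 9 tested glycogen genes 6 were higher, among them *Pgm1* (1.39), *Gys1* (0.72) and *Pgm2* (0.69), and 1 was lower, the liver-type glycogen phosphorylase *Pygl* (-1.83), which was 196 FPKM in BM and 25.7 in B on day 7.

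A list of hypoxia-inducible factors, further textbook targets and *Vhl*, which is neither, had 13 tested genes. Of these, 10 were higher, 1 lower and 2 not called. The list's median was 1.29, beside 1.32 for the 10 glycolysis genes and -0.0023 for all tested genes. *Vegfa*, a blood vessel growth factor, was 19.7 FPKM on day 0, 28.2 (BM) and 33.3 (C) without bFGF on day 7 and 94.6 (B) and 107 (BC) with it. Its difference was 1.65 ± 0.26 over all days (adjusted p = 0.000324). *P4ha1*, a collagen prolyl hydroxylase, was at 1.89 and *Adm*, the peptide adrenomedullin, at 3.26. The 1 lower gene was *Hif1a* itself, at -0.33 ± 0.14 (adjusted p = 0.0476), with 148 FPKM (BM) and 162 (C) without bFGF on day 7 and 49.8 (B) and 52.2 (BC) with it. The factor's RNA and most of its listed targets thus went in opposite directions on day 7, and protein was not measured here. Oxygen, medium glucose and cell density in the cultures are not given in the sources used here.

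**Figure D5:**
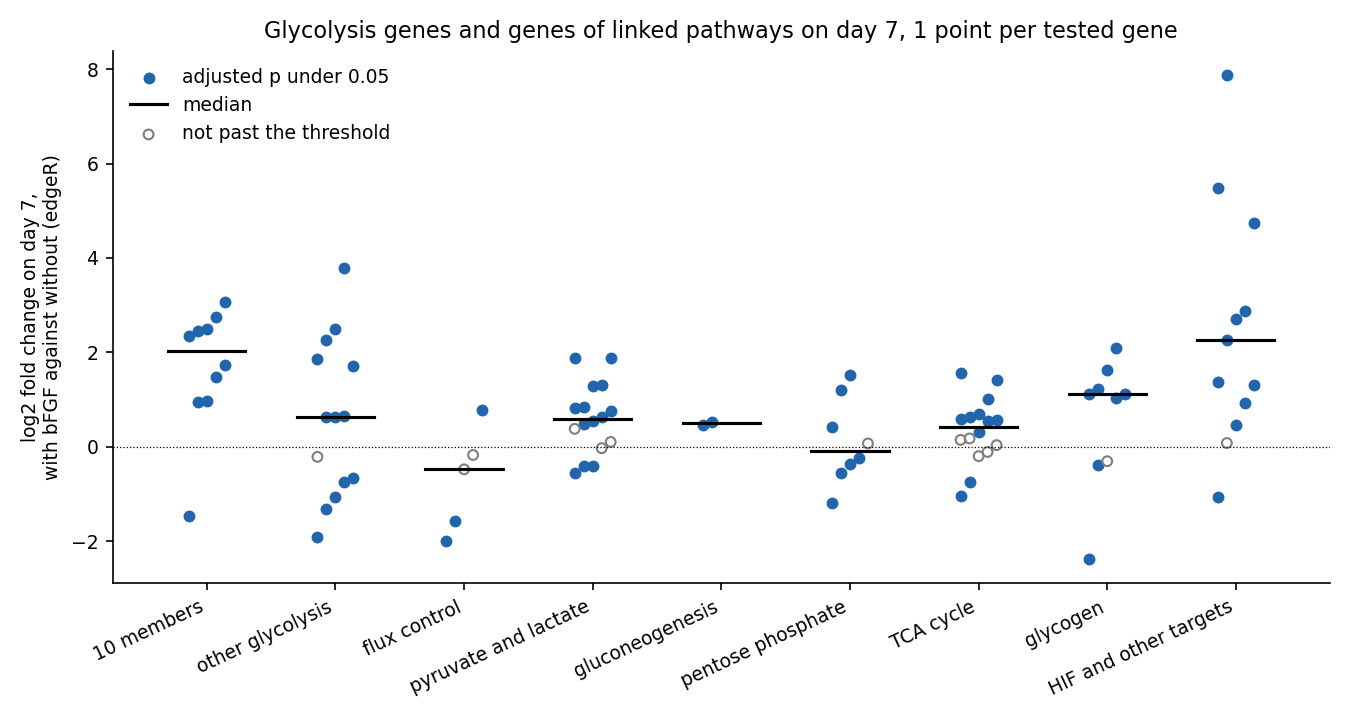
Log2 fold change on day 7 with bFGF against without (vertical, edgeR), 1 point per tested gene, for the 10 glycolysis genes and 8 lists of linked genes, with filled points past an adjusted p of 0.05 and bars at the medians. The medians of the 10 members (2.04) and of the list of hypoxia-inducible factors, targets and *Vhl* (2.26) are the highest. In that list *Ndufa4l2*, listed at 0 FPKM in BM and C on that day, is counted in the median but not drawn.

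Within the 10 genes, profiles over the 17 libraries were compared as Pearson correlations of log2(FPKM + 1). The libraries share days and treatments, so these are descriptions. *Tpi1* and *Pgk1* were the most alike (r = 0.983), and *Pgam1*, *Aldoa*, *Pkm* and *Ldha* each had a partner at 0.95 or more. *Hk2* ran against most of the others, down to r = -0.861 with *Pgk1*, but had an r near 0 with *Pfkl*, and *Slc2a1* had no partner above 0.449. Outside the 10, the gene whose profile was most like the mean of the members' z-scores was *Ak4*, a mitochondrial adenylate kinase (r = 0.970 over 17 libraries), followed by *Pfkp* (0.956), *Abcc12* (0.944), *Lgals3* (0.942), *Prkar2b* (0.939), *Idh3b* (0.938), *Ccdc109b* (0.937), *Ethe1* (0.932), *Spag4* (0.929) and *Mrpl45* (0.925). *Ak4* was 4.96 FPKM (BM) and 4.24 (C) without bFGF on day 7 and 22.9 (B) and 16.8 (BC) with it, and *Lgals3*, encoding galectin-3, was 81.2, 86.4, 565 and 441 in the same order.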

How the data were processed

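The authors sequenced mRNA on the BGISEQ-500 platform and mapped it with Bowtie 2. The processing notes in the labels name Bowtie2, RSEM and the build mm10, and the study's methods name eXpress for the FPKM values; versions are not given in the sources used here. The values the authors deposited were an expected count per gene (an estimated count that splits reads among the genes they fit) and its FPKM, scaled by transcript length and library total. Genes that a library did not list were taken as 0 there.

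For the tests, expected counts were rounded. The quasi-likelihood test of edgeR 4.0.16 (R 4.3.3) was used with TMM scaling, on the 11272 genes whose FPKM averaged 1 or more, with Benjamini-Hochberg adjustment and a threshold of 0.05. The fits used the 16 cultured libraries and left out day 0. For days 1 to 7 the terms were bFGF, CHIR99021 and day, with 10 residual degrees of freedom. The model by day had 8 means of bFGF and day plus CHIR99021, with 7, and a coefficient of variation of 10%. With 1 library per condition, the spread is the departure from these models, not that between cultures, and intervals are 95% intervals of the fit. Pairs and correlations used log2(FPKM + 1). Alternatives were RLE or no scaling, other filters, DESeq2 1.42.0, limma 3.58.1 on log2(FPKM + 1) or log2(FPKM + 0.1), other terms, and leaving out a day or a library. The fits were also run on simulated counts. For the model of days 1 to 7 these had the same bFGF difference on all days and a smaller spread than that model. They therefore do not test its p on these data. Python 3.11.15 with pandas 2.3.3, numpy 2.4.6 and matplotlib 3.10.9 made summaries and plots.

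The 10 genes and the lists were chosen with earlier results of these data known. The rule for other genes was to name up to 3 per list and direction with the lowest adjusted p over days 1 to 7, the sister isozymes and *Gapdh*, and the 10 genes with the most similar profile. *Ndufa4l2* (for the plot), *Pdk1* and *Pdk3* were named after their values were seen. Promoter sequences and coordinates are RefSeq's (GRCm38.p6), matched for 10 of 10 genes.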

Additional observations from a re-analysis of the deposited data

Results flagged for a closer look

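For 9 of the 10 genes the bFGF difference on day 7 differed from that on day 1, by a test of the difference between the 2 days (edgeR quasi-likelihood test, Benjamini-Hochberg adjustment), as it did for 65.4% of all genes tested. On the log2 scale the change was 2.75 for *Pgk1*, 2.61 for *Aldoa*, 2.26 for *Pgam1*, 2.16 for *Tpi1* and 2.16 for *Ldha*. It was 1.63 for *Pkm*, 1.27 for *Eno1* and 0.70 for *Pfkl*, and for *Hk2* it was -1.47. The adjusted p ranged from 3.08e-07 for *Pgk1* to 0.0199 for *Pfkl*.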

How the results depend on the processing

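No paired analysis was possible because the labels give no replicate number that could form a block. Libraries were paired by day and by the other agent, which are already terms of the models. Single genes kept their call, or the lack of one, in 2385 of their alternative values. Of the others, 24 lost the call, 18 gained it and 3 changed sign and were called. Values that were not called also crossed 0 and are not among the 3. With single libraries left out, the CHIR99021 difference of *Aldoa* ran from -0.07 to 0.28. Of the counts of called genes, the 1 gene lower with bFGF over days 1 to 7 became 0 without day 7 (*Hk2*, -0.63, adjusted p = 0.0594), by construction a smaller set of libraries. The 1 gene lower on day 7 against day 1 with bFGF became 3 with no TMM scaling and with limma on log2(FPKM + 1) or log2(FPKM + 0.1). The called sign changes were those of *Eno1*, at -0.40, -0.41 and -0.41 in that order, and these settings differ in not centring the median gene. Leaving out each library in turn gave 0 to 1 lower gene there, 1 to 2 higher genes for day 7 against day 1 without bFGF, 7 to 9 higher genes on days 3 and 5, and 9 on day 7 and over days 1 to 7. The bFGF difference over days 1 to 7 then ran from 1.94 to 2.32 for *Pgk1* and from -0.97 to -0.72 for *Hk2*. The 10 genes with the most similar profiles shared 8 with a pseudocount of 0.1 and 8 over the 16 cultured libraries. Depth did not limit the 10 genes, while the lack of replicates limits every p.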
